A study of Mus musculus with 23 samples.

Results

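Mouse mammary carcinomas treated with abemaciclib, a drug that blocks the cell cycle kinases CDK4 and CDK6, held very different amounts of the proliferation marker Mki67. The 12 treated tumours were therefore divided by that marker: the members of each group were chosen by the measured Mki67 count over the total count of the library, in CPM (counts scaled to a common library size). The 6 tumours with the lowest level (abemaciclib tumours 7, 1, 11, 5, 12 and 8, in ascending order) are called low-Mki67 tumours here, and the other 6 (tumours 6, 4, 9, 2, 3 and 10) high-Mki67 tumours, out of 12 abemaciclib tumours among 23 tumours in all. Mice had been given doxycycline from 6 weeks of age, were allocated at random to treatment once tumours had formed, and received either vehicle (11 tumours) or abemaciclib at 90 mg/kg by gavage each day, with tumours frozen after the 12th dose. All 23 tumours thus shared the doxycycline induction and the gavage schedule. The labels name no transgene, promoter, strain or sex for these animals, and they do not say which tumours came from separate mice, so the spread between tumours may hold less than the spread between animals. RNA was measured with a custom amplicon panel that reads 1 short stretch of each of 3826 genes.

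CDK4 and CDK6, bound to D-type cyclins, phosphorylate the retinoblastoma protein RB. Phosphorylated RB releases E2F transcription factors, which switch on genes of DNA synthesis, and genes of mitosis follow later in the cycle when the DREAM repressor complex has been taken off their promoters. A CDK4/6 inhibitor keeps RB active and holds cells in G1. Mki67 encodes Ki-67, a protein that coats mitotic chromosomes and is made by cycling but not by resting cells, so its messenger RNA is used as a measure of proliferation. In bulk tissue, fewer cells of a type and less RNA per cell cannot be told apart, and this holds for every gene below.

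Mki67 (chromosome 7, 135689784 to 135716361, mm10) was at 7.54 CPM in abemaciclib tumour 7, 9.89 in tumour 1, 14.6 in tumour 11, 15.9 in tumour 5, 28.4 in tumour 12 and 29.7 in tumour 8, the low-Mki67 tumours. The high-Mki67 tumours followed with 31.3 CPM in tumour 6, 43.1 in tumour 4, 68.9 in tumour 9, 80.2 in tumour 2, 81.4 in tumour 3 and 123 in tumour 10, which is 16.3 times the lowest level. These values chose the tumours and are given as a description. Tumours 8 and 6, on either side of the boundary, held 126 and 125 Mki67 counts and differed 1.05-fold, with 95% exact binomial intervals of 24.8 to 35.4 and 26.1 to 37.3 CPM that overlap; the intervals cover counting error only. Vehicle tumours lay between 33.5 and 191 CPM, so that 6 of 6 low-Mki67 tumours and 1 of 6 high-Mki67 tumours were below every vehicle tumour.

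**Figure D1:**
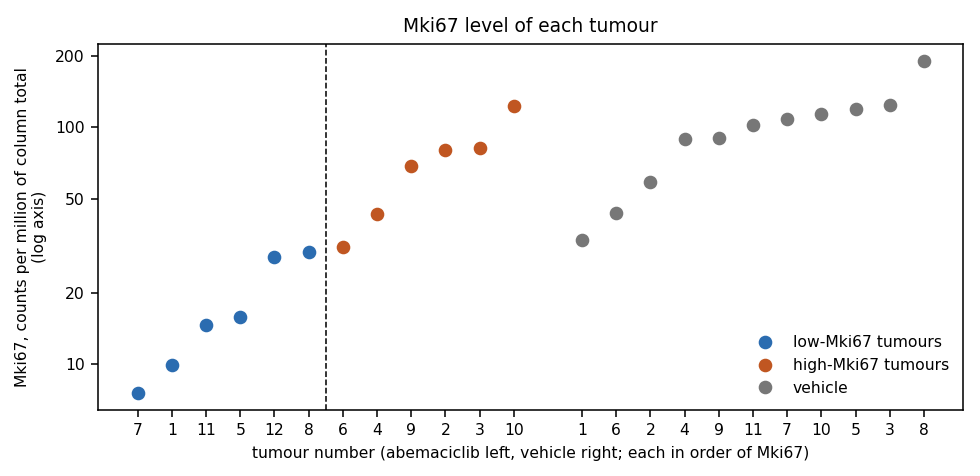
Mki67 in CPM of the library total (log axis) for each abemaciclib tumour (left, 12 points) and each vehicle tumour (right, 11 points), numbered as in the labels and in order of level; the dashed line is the boundary between low-Mki67 and high-Mki67 tumours. Levels climb in steps from 7.54 to 123 CPM with no gap at the boundary, and 5 of the 6 high-Mki67 tumours lie within the vehicle range.

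No difference in depth was detected between the groups. Totals were 3639079 to 4304655 counts in low-Mki67 and 2756919 to 4990391 in high-Mki67 tumours (difference in mean log10 total -0.00134, exact permutation test, two-sided, p = 0.972). The number of genes with a count was 3261 to 3368 and 3261 to 3371 (exact permutation p = 0.177). The small nuclear RNA Rn7sk took 6.49 to 16.4% and 7.89 to 15.1% of counts (exact permutation p = 0.981). Adjusted over these 3 measures p was 0.981, 0.532 and 0.981. Library make-up differed in 1 abundant transcript, that of Mfge8, a milk fat globule protein, which alone took 3.08 to 8.85% of all counts in low-Mki67 and 1.36 to 3.25% in high-Mki67 tumours. Scaling to library totals in place of TMM shifted the median log2 difference of all tested genes from -0.011 to 0.21, and scaling to housekeeping genes shifted it to -0.12. An epithelial and a leukocyte marker were read beside the label of mammary carcinoma, though they cannot tell it from another epithelial tissue. Epcam, an epithelial adhesion protein, was at 1089 to 1406 CPM at low and 838 to 1339.6 CPM at high Mki67, and the leukocyte phosphatase Ptprc at 62.4 to 105 CPM at low and 50.9 to 96.6 CPM at high Mki67.

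Of the 2927 genes tested beside Mki67, 255 were higher (8.71%) and 189 lower (6.46%) in high-Mki67 tumours by edgeR's quasi-likelihood test at an adjusted p under 0.05; 162 and 48 of these differed by 2-fold or more. In 70 genes (2.39%) every high-Mki67 tumour lay above every low-Mki67 tumour, and in 42 (1.43%) every one lay below. Without tumour 8 these were 200 and 189, and without tumour 6 they were 158 and 89, and 64 genes lay below without tumour 4. Leaving out a tumour can only keep or raise these counts. The median log2 difference, high minus low, was 1.24 among the higher and -0.76 among the lower genes. Because the tumours were ordered by a measured level, these p-values describe how transcripts go together with Mki67 among 12 treated tumours and no effect of treatment. Of the 255 higher genes, 53 were members of 4 cell division lists with 95 tested members, and 202 were not, while 0 of the 189 lower genes were members. Counts of called or non-overlapping genes in each list below are to be read beside these shares over all tested genes.

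The number of calls rested on few tumours. Without tumours 3 and 10 it fell to 44 higher and 23 lower genes, of which 66 were among the 444 called with all 12, and all 444 kept their sign. The higher calls numbered 153 without tumour 1, 155 without tumour 11 and 169 without tumour 10. The lower calls numbered 69 without tumour 1, 79 without 10, 82 without 7, 88 without 3, 91 without 5, 99 without 2, 106 without 11 and 107 without 12, and 284 without tumour 8, which lies at the boundary. Scaling to library totals gave 469 higher and 71 lower genes, a share of 86.9% higher against 57.4% with TMM, and limma-voom gave 51.5%, with 383 and 361. The upper-quartile factors gave 311 higher and 136 lower genes, or 69.6% higher. In each of these alternatives all 444 genes kept their sign.

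Genes of mitosis formed the block nearest to Mki67, and they are given as levels without a p-value, since dividing cells express them together with the gene used for ranking. Of 31 tested members of a G2 and mitosis list, 30 were higher and 1 lower in high-Mki67 tumours, with a median log2 difference of 1.99 against -0.011 over all genes, and 15 members did not overlap between the groups. Their summed level was 404 to 693 CPM in low-Mki67, 790 to 2929 CPM in high-Mki67 and 977 to 4277 CPM in vehicle tumours. Top2a, the topoisomerase that untangles replicated chromosomes, was at 9.65 to 42.8 CPM (median 20.8) at low and 45.1 to 271 CPM (median 113) at high Mki67. Cdk1, the kinase that drives entry into mitosis, was at 8.20 to 32.2 CPM (median 17.7) at low and 33.1 to 135 CPM (median 69.4) at high Mki67. Its partner cyclin Ccnb1 was at 8.14 to 32.2 CPM at low and 32.1 to 193 CPM at high Mki67, where the lowest high-Mki67 tumour, number 6, fell just under tumour 8. Ube2c and Cdc20 serve the anaphase-promoting complex that ends mitosis. Ube2c was at 16.6 to 54.7 CPM at low and 55.8 to 267 CPM at high Mki67, and Cdc20 at 7.84 to 22.9 CPM at low and 36.5 to 178 CPM at high Mki67. The kinesin Kif2c, the spindle checkpoint kinase Bub1b (chosen after its values were seen), the cytokinesis factor Ect2, the survivin gene Birc5 and the cyclin Ccnb2 likewise had no overlap. Their log2 differences were 2.21, 2.00, 1.80, 2.17 and 2.02. Without tumours 3 and 10 the list kept 30 of 31 positive members and a median of 1.66.

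By Pearson's r of log2 CPM over the 12 abemaciclib tumours, the genes most like Mki67 were Top2a (0.992), Ube2c (0.991), the cyclin Ccna2 (0.983), the replication helicase subunit Mcm2 (0.976), Birc5 (0.970), the microtubule regulator Stmn1 (0.970), the transcription factor Mybl2 (0.965), Cdk1 (0.964), Ccnb2 (0.964) and the death receptor Tnfrsf10b (0.961). Spearman's rho lay between 0.944 and 1, and r without the 2 tumours farthest from the median of Mki67 between 0.936 and 0.992. All 10 were taken for this likeness, so the values are a description over 12 tumours that share the panel and library type. Stmn1 and Tnfrsf10b stood in no cell division list. Ube2c ordered the 12 tumours exactly as Mki67 did, with Spearman's rho of 1. Tnfrsf10b differed little in size, at 60.0 to 78.9 CPM at low and 94.9 to 118 CPM at high Mki67 (edgeR log2 difference 0.57, SE 0.11). Its groups did not overlap, but it was picked for following Mki67 in these tumours, so no p is given.

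Many mitotic promoters carry a cell cycle genes homology region (CHR, letters TTTGAA), through which the MuvB core of DREAM binds, together with CCAAT boxes bound by NF-Y. The 250 bases before the start of 26 of the 31 tested mitosis genes were found in a RefSeq promoter table (GRCm38.p6), and 10 of the 26 (38.5%) held TTTGAA and 19 (73.1%) held CCAAT, on either strand, with 9 (34.6%) holding both. Of all 27025 promoters in that table, 16.3% held TTTGAA, 34.5% CCAAT and 5.73% both, and of 2229 genes tested here 10.4%, 35.9% and 4.62%. Of 21 matched genes of the E2F and DNA replication list, 3 (14.3%) held TTTGAA and 11 (52.4%) CCAAT. An E2F site in the letters TTTCCCGC was in 0 of the 26 mitosis genes, 1 of the 21 E2F genes and 0.929% of all promoters. The motif counts are a description of these windows and carry no measurement of binding. Some of the windows run into exons of the GENCODE annotation. Those of Kif14 and Kif2c lie wholly inside the genes as GENCODE bounds them, downstream of the GENCODE start. Both genes count among the 10 with TTTGAA, and Kif14 among the 9 with both motifs. The windows of Top2a and Ccnb2, genes without overlap between the groups whose windows hold both motifs and no annotated exon, are printed 5′ to 3′ on the gene's strand, with TTTGAA and CCAAT or their reverse complements in capitals.

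Ccnb2, chr9:70421555-70421804, minus strand: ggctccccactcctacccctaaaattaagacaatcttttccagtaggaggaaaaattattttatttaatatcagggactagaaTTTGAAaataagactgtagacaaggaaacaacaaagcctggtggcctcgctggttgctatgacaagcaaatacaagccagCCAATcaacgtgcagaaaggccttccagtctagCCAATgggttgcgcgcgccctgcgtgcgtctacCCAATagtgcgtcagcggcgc
Top2a, chr11:99024190-99024439, minus strand: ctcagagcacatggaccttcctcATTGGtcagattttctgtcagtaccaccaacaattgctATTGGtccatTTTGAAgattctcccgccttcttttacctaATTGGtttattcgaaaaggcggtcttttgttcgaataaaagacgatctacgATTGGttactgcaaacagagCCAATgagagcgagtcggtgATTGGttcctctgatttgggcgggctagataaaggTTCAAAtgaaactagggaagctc

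Genes of DNA synthesis followed with smaller differences. Of 24 tested members of the E2F and replication list, 23 were higher and 1 lower, with a median log2 difference of 0.94 and 7 members without overlap. Ccne1, the cyclin that activates CDK2 at the start of S phase, was at 1.37 to 4.63 CPM (median 3.75) at low and 4.69 to 29.9 CPM (median 21.3) at high Mki67, and here low-Mki67 tumours 7 and 1 held 2.41 and 1.37 CPM. Mcm2 was at 4.78 to 13.6 CPM at low and 13.0 to 37.9 CPM at high Mki67, overlapping only through tumour 6, just under tumours 12 and 8. Pole2, a subunit of the leading-strand polymerase, had a log2 difference of 1.53 and Tfdp1, the dimerization partner of E2F proteins, one of 0.82. The maintenance methyltransferase Dnmt1, at 161 to 219.5 CPM at low and 158 to 319 CPM at high Mki67, differed by only 0.23, and Ezh2, the histone H3 methyltransferase of Polycomb and an E2F target, by 0.36. Of 17 genes of homologous recombination and mismatch repair, 13 were higher, with a median of 0.28. The helicase Blm had a log2 difference of 1.69 and Brca1 one of 1.57.

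The drug's own pathway was split by member. Among D-type cyclins, Ccnd1 (chromosome 7, 144929931 to 144939925) was at 107 to 315 CPM (median 186) at low and 299.6 to 921 CPM (median 613) at high Mki67, and at 921 CPM in tumour 10 and 881 in tumour 3 it exceeded every vehicle tumour (214 to 830.0 CPM). Ccnd2 was at 5.77 to 13.9 CPM (median 11.0) at low and 16.4 to 49.6 CPM (median 25.1) at high Mki67 without overlap, and high-Mki67 tumours 3, 4 and 10, at 49.6, 43.0 and 28.7 CPM, lay above all vehicle tumours (2.11 to 21.9 CPM). Of the kinase genes themselves, Cdk4 was at 176 to 363 CPM at low and 271 to 665 CPM at high Mki67, a log2 difference of 0.92 (SE 0.22). Cdk6 was at 15.9 to 35.3 CPM at low and 28.4 to 60.8 CPM at high Mki67, a difference of 1.01 (SE 0.23), and both overlapped. Rb1 was at 504 to 802 CPM at low and 416 to 856 CPM at high Mki67, a difference of -0.16 (SE 0.18) that turned positive with library totals. The CDK inhibitors showed no common direction. Cdkn1a, which encodes p21, differed by 0.81 (SE 0.26) and Cdkn2c, an inhibitor of CDK4 and CDK6, by 0.73 (SE 0.26), whereas Cdkn1b differed by -0.31 (SE 0.20) and Cdkn2a by -0.18 (SE 0.20). Across the list of 23 tested CDK-RB genes, 15 were positive and 8 negative, with a median of 0.11 and 1 member, Ccnd2, without overlap.

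**Figure D2:**
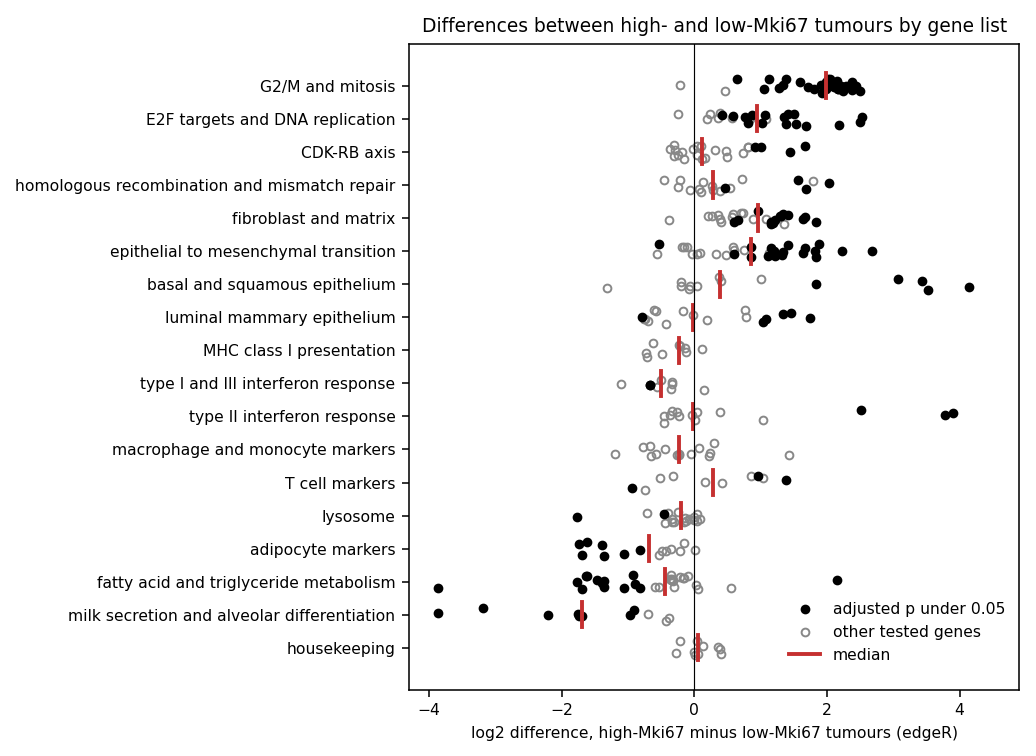
Log2 difference between high-Mki67 and low-Mki67 abemaciclib tumours (horizontal axis) for each tested gene of 18 lists, 1 point per gene, filled where the edgeR adjusted p was under 0.05, with the list median as a red line; for the first 4 lists the fill is no support, since they hold genes tied to the ranking. Mitosis genes have a median of 1.99 and milk secretion genes one of -1.69, against -0.23 for MHC class I, -0.23 for macrophage and 0.28 for T cell genes. The milk secretion, fatty acid and triglyceride, and epithelial to mesenchymal lists were chosen after values were seen, so their medians and fills are a description.

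Outside the cell division lists, the genes with the smallest p on the high-Mki67 side were led by mesenchymal and matrix transcripts. Vim (chromosome 2, 13573927 to 13582826), the intermediate filament of mesenchymal cells, was at 499 to 773 CPM (median 582) at low and 823 to 1669.5 CPM (median 1382) at high Mki67 (log2 difference 1.15, SE 0.17, adjusted p = 0.00566), with no overlap and the nearest values in tumours 8 and 6. Vcan, a matrix proteoglycan, was at 36.6 to 124 CPM (median 59.9) at low and 132 to 277 CPM (median 214) at high Mki67 (log2 difference 1.67, SE 0.27, adjusted p = 0.00566), again without overlap. The adhesive glycoprotein Thbs1 was at 89.9 to 243 CPM at low and 281 to 636 CPM at high Mki67 (log2 difference 1.41, SE 0.24, adjusted p = 0.00566). In none of these 3 did the groups overlap. The protease inhibitor Timp1 was at 19.0 to 47.5 CPM at low and 45.1 to 201 CPM at high Mki67 (log2 difference 1.83, SE 0.33, adjusted p = 0.00603). The basement membrane collagen Col18a1 was at 109.8 to 216 CPM at low and 208 to 494 CPM at high Mki67 (log2 difference 1.31, SE 0.22, adjusted p = 0.00566). Enpp2, the secreted enzyme that makes lysophosphatidic acid, was at 1.97 to 3.32 CPM at low and 4.91 to 14.3 CPM at high Mki67 (log2 difference 1.72, SE 0.29, adjusted p = 0.00566). The groups overlapped in Timp1 and Col18a1 and not in Enpp2. Each of these 6 stayed past the threshold without tumours 3 and 10.

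Of 27 tested genes of a fibroblast and matrix list, 26 were higher and 1 lower in high-Mki67 tumours, with a median of 0.96. Of these 27 genes 14 were called higher, against 8.71% of all tested genes, and 6 lay above without overlap, against 2.39%. Their sum was 7957 to 22744 CPM in low-Mki67, 19256 to 37948 in high-Mki67 and 12970 to 21994 in vehicle tumours. The crosslinking enzyme Lox was at 25.4 to 94.8 CPM at low and 96.7 to 185 CPM at high Mki67 (log2 difference 1.21, SE 0.31, adjusted p = 0.0199). The fibrillar collagen Col5a1 was at 33.4 to 227 CPM at low and 239.7 to 498 CPM at high Mki67 (log2 difference 1.30, SE 0.36, adjusted p = 0.0292). Both had no overlap. Fibronectin, Fn1, differed by 1.34 (SE 0.36, adjusted p = 0.0252) and the fibroblast and pericyte receptor Pdgfrb by 1.16 (SE 0.31, adjusted p = 0.0260). Col1a1, the main collagen of stroma, did not pass, at 431 to 4161 CPM at low and 1952 to 10347 CPM at high Mki67 (log2 difference 1.08, SE 0.51, adjusted p = 0.158), nor did the fibroblast receptor Pdgfra (log2 difference 0.57, SE 0.44, adjusted p = 0.395). Without tumours 3 and 10, 29 genes of the list were tested, with a median of 0.96 and 4 called; Lox, Col5a1, Fn1 and Pdgfrb were not among these (adjusted p = 0.0747, 0.0951, 0.0740 and 0.0643). Whether fibroblasts or carcinoma cells carried these transcripts was not tested. Lox, Col5a1, Fn1, Pdgfrb and Pdgfra were chosen after their values were seen.

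An epithelial to mesenchymal list, also chosen after values were seen and sharing 14 of its genes with other lists, had 25 of 31 members higher, 17 called higher and 1 lower, and a median of 0.86. The activin subunit Inhba was at 6.15 to 34.9 CPM at low and 27.9 to 127 CPM at high Mki67 (log2 difference 2.23, SE 0.46, adjusted p = 0.00896). The activin antagonist follistatin, Fst, was at 6.03 to 22.9 CPM at low and 18.2 to 208 CPM at high Mki67 (log2 difference 2.69, SE 0.57, adjusted p = 0.00969). The hyaluronan receptor Cd44 was at 176 to 484 CPM at low and 419 to 2126 CPM at high Mki67 (log2 difference 1.89, SE 0.39, adjusted p = 0.00870). In all 3 the groups overlapped at their edges. The calcium-binding protein S100a4 was at 10.3 to 42.1 CPM at low and 46.7 to 176 CPM at high Mki67 (log2 difference 1.83, SE 0.38, adjusted p = 0.00896). The transcription factor Twist1 was at 3.66 to 16.5 CPM at low and 12.8 to 50.4 CPM at high Mki67 (log2 difference 1.63, SE 0.43, adjusted p = 0.0234). The fibronectin receptor chain Itga5 was at 29.0 to 64.3 CPM at low and 72.0 to 226 CPM at high Mki67 (log2 difference 1.20, SE 0.30, adjusted p = 0.0183), its top value being 226 CPM in tumour 9. Of these 6, all chosen after their values were seen, Itga5 kept its call without tumours 3 and 10 and the other 5 did not, with adjusted p of 0.0554, 0.0571, 0.0554, 0.0571 and 0.126. Fst fell from a difference of 2.69 to 1.44 there. The epithelial adhesion gene Epcam did not pass (log2 difference -0.17, SE 0.14, adjusted p = 0.418).

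Among the abemaciclib tumours, basal and squamous keratins were high in 2 above all. Vehicle tumours varied too. Krt14 had 13512 and 11711 raw counts in control tumours 3 and 5 and 856 to 5061 in the other vehicle tumours. Abemaciclib tumours 3 and 10 held 47731 and 26629. Krt14 (chromosome 11, 100203162 to 100207548), the keratin of basal and myoepithelial cells, was at 9147 CPM in tumour 3 and 6110 CPM in tumour 10, against 549 to 1679 CPM in the other 4 high-Mki67 tumours and 83.5 to 560.2 CPM in the low-Mki67 tumours. The log2 difference was 3.53 (SE 0.75, adjusted p = 0.00974), and 1.92 (adjusted p = 0.0607 by edgeR) without both. Its partner keratin Krt5 reached 2869 and 2026 CPM in the same tumours, with at most 587 CPM in the other 10 (log2 difference 3.07, SE 0.82, adjusted p = 0.0252, and 1.41, adjusted p = 0.191, without both). The desmosomal cadherin Dsg3 was at 413 and 315 CPM there and at no more than 34.8 CPM in the other 10 abemaciclib tumours (log2 difference 4.15, SE 1.02, adjusted p = 0.0174, and 1.44, adjusted p = 0.189, without both). Krt15, another basal keratin, and Sfn, the epithelial 14-3-3 protein, differed by 3.43 (SE 0.84, adjusted p = 0.0171) and 1.84 (SE 0.39, adjusted p = 0.00996), and by 1.07 and 1.08 without tumours 3 and 10 (adjusted p = 0.152 and 0.0554). Of 14 tested genes of the basal and squamous list 9 were positive, 5 of them called, with a median of 0.39 that fell to 0.08 with 0 called members when these tumours were left out. Krt5 and Dsg3 were named after their values were seen.

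Simple epithelial keratins went the same way with less contrast. Krt8 was at 439 to 1189 CPM at low and 959 to 3024 CPM at high Mki67 (log2 difference 1.03, SE 0.30, adjusted p = 0.0336). Krt7 was at 170.5 to 398 CPM at low and 382 to 956 CPM at high Mki67 (log2 difference 1.08, SE 0.26, adjusted p = 0.0165). Krt19 was at 156 to 537 CPM at low and 348 to 1576 CPM at high Mki67 (log2 difference 1.45, SE 0.39, adjusted p = 0.0257). Krt18, the partner of Krt8, did not pass (log2 difference 0.77, SE 0.31, adjusted p = 0.101). None of Krt8, Krt7 and Krt19 passed without tumours 3 and 10 (adjusted p = 0.0981, 0.0940 and 0.0607). Prom1, a surface protein of luminal cells, was higher in high-Mki67 tumours (log2 difference 1.33, SE 0.34, adjusted p = 0.0205). Muc1, a mucin of luminal cells, was lower (log2 difference -0.79, SE 0.20, adjusted p = 0.0187). Prom1 and Muc1 had an adjusted p of 0.0793 and 0.0608 by edgeR without those tumours. Over 17 luminal genes 8 were positive and 9 negative, with a median of -0.02 that became 0.22 under library totals. Erbb2, the receptor tyrosine kinase, was at 49.3 to 77.6 CPM at low and 53.7 to 104 CPM at high Mki67 (log2 difference 0.08, SE 0.18, adjusted p = 0.783), with a sign that turned with housekeeping scaling. Krt19 was chosen after its values were seen.

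Genes of milk secretion and of alveolar differentiation stood on the other side, high where Mki67 was low. All 11 tested genes of a list chosen after values were seen were lower in high-Mki67 tumours, 8 passed the test and 4 did not overlap, with a median of -1.69; without tumours 3 and 10 the median was -1.40 and 6 were called. Mfge8 (chromosome 7, 79133768 to 79149060) was at 31145 to 110033 CPM (median 73246) at low and 12106 to 33793 CPM (median 24378) at high Mki67, where tumour 8, the lowest of the low-Mki67 group, lay below the highest of the other (log2 difference -1.69, SE 0.32, adjusted p = 0.00687). Slc34a2, the phosphate transporter of the secretory epithelium, was at 129 to 371 CPM (median 271) at low and 57.6 to 126 CPM (median 76.0) at high Mki67 without overlap (log2 difference -1.75, SE 0.25, adjusted p = 0.00566). Lactoperoxidase, Lpo, was at 23.4 to 91.2 CPM at low and 6.42 to 20.9 CPM at high Mki67 (log2 difference -2.21, SE 0.37, adjusted p = 0.00566), also without overlap. The mucosal chemokine Ccl28, which milk-secreting glands make, was at 4.78 to 46.8 CPM at low and 0.688 to 6.06 CPM at high Mki67 (log2 difference -3.18, SE 0.56, adjusted p = 0.00566). The fatty acid binding protein Fabp3 was at 6.45 to 609.6 CPM at low and 3.45 to 21.2 CPM at high Mki67 (log2 difference -3.86, SE 0.86, adjusted p = 0.0117), the top value being 609.6 CPM in tumour 12, with an adjusted p of 0.0701 without tumours 3 and 10.

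Both STAT5 genes, which encode the transcription factors that carry the prolactin signal in mammary alveoli, were among the lower genes with the smallest p. Stat5a (chromosome 11, 100859351 to 100885169) was at 211 to 361 CPM (median 268) at low and 119.8 to 185 CPM (median 145) at high Mki67 (log2 difference -0.97, SE 0.16, adjusted p = 0.00566). Stat5b (chromosome 11, 100780731 to 100850724) was at 189 to 311 CPM (median 251) at low and 100.1 to 169 CPM (median 142) at high Mki67 (log2 difference -0.90, SE 0.16, adjusted p = 0.00624). In neither did the groups overlap, and tumour 8 was the lowest low-Mki67 tumour in both. Vehicle tumours spanned 131 to 242 CPM for Stat5a and 129 to 251 CPM for Stat5b, overlapping both groups. The 2 genes are neighbours with similar sequences, and the amplicon positions do not appear in the sources read, so a share of reads between them is uncertain. Lcn2, a secreted lipocalin of glandular epithelium and neutrophils, was at 29085 to 64689 CPM at low and 21232 to 42849.5 CPM at high Mki67 and did not pass (log2 difference -0.70, SE 0.24, adjusted p = 0.0582).

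**Figure D3:**
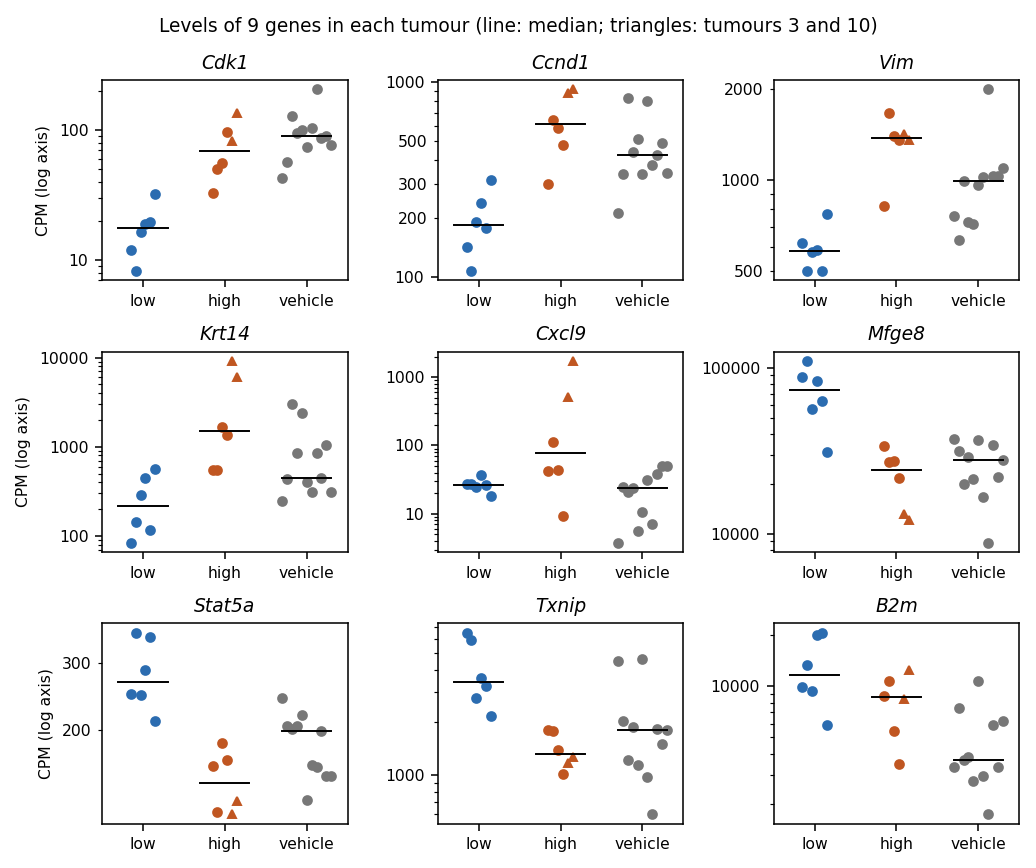
CPM (log axis, TMM-scaled) of 9 genes in each low-Mki67 (blue, 6), high-Mki67 (orange, 6) and vehicle (grey, 11) tumour, with medians as lines and tumours 3 and 10 as triangles. Vim and Stat5a do not overlap between the abemaciclib groups, Krt14 and Cxcl9 peak in tumours 3 and 10, and B2m overlaps widely.

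Most lipid metabolism genes had lower levels in high-Mki67 tumours, and fewer of them passed the test. Of 30 tested genes of a fatty acid and triglyceride list, chosen after values were seen, 26 were negative and 4 positive, 13 were called lower and 1 higher, with a median of -0.45; without tumours 3 and 10, 3 were called lower and 1 higher, with a median of -0.26. Pnpla2, the first lipase of triglyceride breakdown, was at 583 to 1114 CPM at low and 385 to 572 CPM at high Mki67 without overlap (log2 difference -1.05, SE 0.16, adjusted p = 0.00566). The desaturase Scd1 was at 3982 to 17868 CPM at low and 2192 to 3326 CPM at high Mki67 without overlap (log2 difference -1.62, SE 0.30, adjusted p = 0.00674), its peak being in tumour 5. Fatty acid synthase, Fasn, was at 628 to 2791 CPM at low and 469 to 684 CPM at high Mki67 (log2 difference -1.39, SE 0.31, adjusted p = 0.0121; adjusted p = 0.0701 without tumours 3 and 10). The thioesterase Acot6 was at 36.8 to 94.8 CPM at low and 16.3 to 31.3 CPM at high Mki67 (log2 difference -1.38, SE 0.25, adjusted p = 0.00602). The uptake genes Lpl and Cd36, the lipid droplet protein Cidea and the lipogenic transcription factor Srebf1 were all lower. They differed by -1.37 (SE 0.42, adjusted p = 0.0392), -1.70 (SE 0.46, adjusted p = 0.0269), -1.74 (SE 0.43, adjusted p = 0.0178) and -0.90 (SE 0.28, adjusted p = 0.0461). None of these 4, chosen after their values were seen, passed without tumours 3 and 10. The list's called exception, Fabp5, an epidermal fatty acid binding protein, was at 56.4 to 131 CPM at low and 144 to 1056 CPM at high Mki67 (log2 difference 2.16, SE 0.45, adjusted p = 0.00907), with 748 and 1056 CPM in tumours 3 and 10.

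Because these genes also serve fat cells, the adipocyte markers were read beside them. Of 17 on the panel 14 were tested, 13 negative and 7 called lower, with a median of -0.68, and 11 of the list's genes stand in other lists. Leaving out tumours 3 and 10 gave 2 called lower and a median of -0.62. The called genes include Pnpla2, Scd1, Fasn, Lpl, Cd36 and Cidea, described above. The sum was 6112 to 21607 CPM in low-Mki67 and 4068 to 5561 CPM in high-Mki67 tumours. Its medians were 12149 and 4763 CPM, and Scd1 alone had medians of 7329 and 2933 CPM, so that this gene made up most of the sum. Of markers more specific to fat cells, Adipoq was at 0.562 to 11.8 CPM at low and 0.459 to 20.8 CPM at high Mki67 (log2 difference 0.01, SE 0.91, adjusted p = 0.996), Lep at 0 to 1.44 and 0 to 1.51 CPM, and Fabp4 at 9.84 to 98.9 and 25.2 to 71.8 CPM. Their medians at low and high Mki67 were 4.75 and 2.53, 0.291 and 0.0958, and 56.6 and 41.0 CPM. Lipe (46.6 and 32.1 CPM) and Pparg (3.94 and 3.20 CPM) also had lower medians at high Mki67. Cebpa (61.0 and 61.1 CPM) and Dgat2 (1.76 and 2.12 CPM) did not. Skeletal muscle markers were high in some low-Mki67 tumours and reached raised levels in vehicle tumours too. Their sum was 14.6 to 772 CPM in low-Mki67, 18.6 to 32.1 CPM in high-Mki67 and 19.4 to 223 CPM in vehicle tumours. Des, the muscle intermediate filament, was at 353 CPM in tumour 11 and 128 CPM in tumour 1 against 3.32 to 11.7 CPM in the other 10 (log2 difference -3.49, SE 1.09, adjusted p = 0.0445), and the call was lost without tumours 3 and 10 (adjusted p = 0.157). Myoglobin, Mb, was at 10.4 to 156 CPM at low and 6.87 to 26.5 CPM at high Mki67 and did not pass (log2 difference -1.32, SE 0.59, adjusted p = 0.139), while Myh1 was at 0 to 174 CPM in low-Mki67 and 0 in all high-Mki67 tumours. The part of fat or muscle cells in the lipid gene differences was not tested.

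Several other genes with the smallest p on the low-Mki67 side belong to no list. Txnip (chromosome 3, 96557957 to 96561883), which binds thioredoxin and limits glucose uptake, was at 6509 CPM in tumour 7, 5922 in tumour 1, 3598 in tumour 5, 3228 in tumour 12, 2763 in tumour 11 and 2177 in tumour 8. The high-Mki67 tumours lay below all of these, from 1017 CPM in tumour 2 to 1808 CPM in tumour 6 (log2 difference -1.54, SE 0.26, adjusted p = 0.00566). The zinc finger gene Zfp395 was at 279.8 to 528 CPM at low and 133 to 213 CPM at high Mki67 (log2 difference -1.04, SE 0.17, adjusted p = 0.00566). The glutamate transporter Slc1a1 was at 95.9 to 150.0 CPM at low and 40.4 to 80.5 CPM at high Mki67 (log2 difference -1.13, SE 0.20, adjusted p = 0.00566). Cyb561, a transmembrane electron carrier, and Shank2, a scaffold protein, differed by -0.83 (SE 0.15, adjusted p = 0.00624) and -0.99 (SE 0.18, adjusted p = 0.00624). None of these 5 overlapped between the groups, and each stayed past the threshold without tumours 3 and 10. On the high-Mki67 side, Psrc1, a spindle protein, was at 12.0 to 21.8 CPM at low and 33.4 to 91.5 CPM at high Mki67 (log2 difference 1.67, SE 0.23). Nsl1, a kinetochore subunit, was at 0.844 to 1.80 CPM at low and 3.39 to 7.34 CPM at high Mki67 (log2 difference 1.84, SE 0.31). Stmn1 was at 44.1 to 125 CPM at low and 138 to 419 CPM at high Mki67 (log2 difference 1.62, SE 0.29). These 3 genes of cell division were in none of the cell division lists. They are given without p all the same, since dividing cells express such genes together with Mki67.

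Of 15 tested antigen presentation genes 14 had a lower level in high-Mki67 tumours and 1 was called lower, where 6.46% of all tested genes were. B2m, which all class I molecules need to reach the cell surface, was at 5914 to 20775 CPM (median 11634) at low and 3461 to 12443 CPM (median 8584) at high Mki67 (log2 difference -0.71, SE 0.33, adjusted p = 0.156), against 1744 to 10685 CPM in vehicle tumours. The heavy chains H2-K1 and H2-D1 differed by -0.73 (SE 0.28, adjusted p = 0.0909) and -0.62 (SE 0.31, adjusted p = 0.183); reads of these near copies are uncertain. Of 9 class I genes 8 were negative and 0 called, with a median of -0.23. All 6 class II genes were negative, with a median of -0.32, and 1 was called, the thiol reductase Ifi30 (log2 difference -0.61, SE 0.17, adjusted p = 0.0299), which lost the call without tumours 3 and 10 (adjusted p = 0.134). Of 9 type I and III interferon genes 8 were negative, with a median of -0.50, and 2 were called. These were Irf9, which forms the interferon-activated complex with STAT proteins, at -0.67 (SE 0.19, adjusted p = 0.0320), and the RNA editing enzyme Adar at -0.67 (SE 0.20, adjusted p = 0.0372). Both lost the call in several alternatives, Irf9 among them without tumours 3 and 10 (adjusted p = 0.0948).

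Chemokines of the type II interferon response were highest in 2 tumours. Cxcl9 (chromosome 5, 92321347 to 92328079) was at 1726 CPM in tumour 10 and 520.5 in tumour 3, with 9.41 to 111 CPM in the other 4 high-Mki67 tumours and 18.4 to 36.8 CPM in the low-Mki67 tumours. Cxcl10 was at 461 and 99.1 CPM in the same 2 tumours and at most 19.8 CPM in the others. The log2 differences were 3.90 (SE 0.99, adjusted p = 0.0204) and 3.79 (SE 1.04, adjusted p = 0.0279), and 0.94 (adjusted p = 0.213) and 0.62 (adjusted p = 0.451) without both by edgeR. Nos2, the inducible nitric oxide synthase, differed by 2.51 (SE 0.81, adjusted p = 0.0485), and by 0.68 (adjusted p = 0.488) without them. Of the list's 14 tested genes, 7 were positive and 7 negative, with a median of -0.02 that was -0.22 without tumours 3 and 10. Vcam1 and Icam1, the adhesion molecules for leukocytes, differed by -0.46 (SE 0.22, adjusted p = 0.158) and 0.01 (SE 0.17, adjusted p = 0.981), and the sign of Icam1 turned with housekeeping scaling. Cd274, which encodes PD-L1, differed by 0.40 (SE 0.49, adjusted p = 0.613), and by -0.38 without tumours 3 and 10.

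Leukocyte lists differed in their calls, to be read beside the 8.71% of all tested genes called higher and 6.46% called lower. Of 15 tested macrophage and monocyte genes 10 were negative and 0 called, with a median of -0.23 and a sum of 2999 to 5067 CPM in low-Mki67, 2206 to 4478 CPM in high-Mki67 and 1685 to 3441 CPM in vehicle tumours. Csf1r, the receptor for the macrophage growth factor, was at 96.7 to 219 CPM at low and 73.4 to 157 CPM at high Mki67 (log2 difference -0.65, SE 0.21, adjusted p = 0.0523). The chemokine receptor Cx3cr1 differed by -0.67 (SE 0.22, adjusted p = 0.0539) and the phagosomal metal transporter Slc11a1 by -0.58 (SE 0.27, adjusted p = 0.156). The panel held 21 T cell genes, of which 10 could be tested, 6 were positive, 2 were called higher and 1 lower, with a median of 0.28 that was -0.30 without tumours 3 and 10. Cd3e and Cd8a were at 4.78 to 23.1 and 0.562 to 4.81 CPM in low-Mki67 and 2.27 to 26.4 and 0.428 to 10.8 CPM in high-Mki67 tumours, Cd8a with a difference of 0.86 (SE 0.61, adjusted p = 0.355). Foxp3, of regulatory T cells, was set aside as low, at 0.239 to 1.97 and 0.688 to 4.17 CPM. Of the T cell list genes called, Thy1, which fibroblasts also carry, was higher by 0.96 (SE 0.24, adjusted p = 0.0199) and Tcf7 by 1.39 (SE 0.37, adjusted p = 0.0247). Neither passed without tumours 3 and 10 (adjusted p = 0.0608 and 0.110). Ms4a1, Tnfrsf13b and Tnfrsf17 of B cells were at 0 counts in all 12 tumours. Xbp1, the secretory pathway transcription factor that the B cell list also holds, was lower (log2 difference -0.68, SE 0.22, adjusted p = 0.0484), a call lost in most alternatives. Endothelial Pecam1 was at 123 to 243 CPM at low and 161 to 284 CPM at high Mki67 (log2 difference 0.19, SE 0.18, adjusted p = 0.492). The endothelial receptor Flt1 was higher (log2 difference 0.90, SE 0.28, adjusted p = 0.0440). Prox1, of lymphatic endothelium, was lower without overlap (log2 difference -1.78, SE 0.40, adjusted p = 0.0117). Neither Flt1 nor Prox1 passed without tumours 3 and 10 (adjusted p = 0.116 and 0.0602). Pdpn, also found on lymphatic endothelium, went the other way, at 54.3 to 89.7 CPM at low and 86.5 to 183 CPM at high Mki67. Flt4 had medians of 21.2 CPM at low and 20.3 CPM at high Mki67. Of 15 tested endothelial genes 10 were positive and 5 negative, with 2 called higher and 1 lower.

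Of 14 ERBB signalling genes 7 were positive and 7 negative, and the 5 called were all higher. The EGF receptor ligand Hbegf was at 9.22 to 38.5 CPM at low and 36.5 to 65.5 CPM at high Mki67 (log2 difference 1.26, SE 0.30, adjusted p = 0.0161). Tgfa, another such ligand, was at 5.81 to 23.4 CPM at low and 18.6 to 73.2 CPM at high Mki67 (log2 difference 1.53, SE 0.38, adjusted p = 0.0188). Neuregulin, Nrg1, differed by 1.32 (SE 0.36, adjusted p = 0.0271) and the ERK phosphatase Dusp4 by 0.95 (SE 0.24, adjusted p = 0.0217). None of these 4 passed without tumours 3 and 10 (adjusted p = 0.0808, 0.126, 0.157 and 0.0781), and Nrg1 was chosen after its values were seen. Wnt7b, a WNT ligand, was at 20.5 to 65.7 CPM at low and 56.3 to 233 CPM at high Mki67 (log2 difference 1.91, SE 0.33, adjusted p = 0.00566). Fzd2, a WNT receptor, was at 30.6 to 51.0 CPM at low and 59.2 to 89.2 CPM at high Mki67 without overlap (log2 difference 0.76, SE 0.18, adjusted p = 0.0140). The WNT list of 28 had 5 called higher, 3 lower and a median of 0.24, where 8.71% of all tested genes were called higher and 6.46% lower. Adrenomedullin, Adm, a vasodilator peptide induced by low oxygen, was at 6.03 to 11.8 CPM at low and 11.5 to 123 CPM at high Mki67 (log2 difference 2.62, SE 0.45, adjusted p = 0.00566), with tumours 3 and 10 highest at 123 and 83.3 CPM. The lactate exporter Slc16a3 differed by 2.03 (SE 0.54, adjusted p = 0.0247), but 21 hypoxia and glycolysis genes had a median of 0.10 with 12 positive. All 7 cholesterol synthesis genes tested were positive and 2 were called, among them Hmgcs1 (log2 difference 0.65, SE 0.20, adjusted p = 0.0437). Without tumours 3 and 10, Fzd2, Slc16a3 and Hmgcs1 did not pass (adjusted p = 0.0716, 0.102 and 0.168). The cholesterol list was chosen after values were seen.

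Of 10 tested p53 target genes 6 were positive and 3 called, all higher, 1 of them Tnfrsf10b, which was also picked above for its likeness to Mki67. Beside Tnfrsf10b these were Perp, a desmosomal protein of p53-driven cell death, at 132 to 303 CPM at low and 289 to 1727 CPM at high Mki67 (log2 difference 1.90, SE 0.40, adjusted p = 0.00973), with 1426 and 1727 CPM in tumours 3 and 10, and the kinase Plk2 (log2 difference 0.79, SE 0.20, adjusted p = 0.0194). Perp and Plk2 did not pass without those tumours (adjusted p = 0.0571 and 0.110). The costimulatory receptor Tnfrsf9, on the checkpoint list, was at 3.76 to 6.94 CPM at low and 7.30 to 44.8 CPM at high Mki67 without overlap (log2 difference 1.90, SE 0.39, adjusted p = 0.00870). Its list of 8 tested genes had a median of 0.36, and of -0.33 without tumours 3 and 10, where Tnfrsf9 lost the call (adjusted p = 0.0554).

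Of 36 tested genes of a list of secreted factors linked to senescence 26 were positive and 10 negative, with a median of 0.66. Of the 36, 7 were called higher and 2 lower, where 8.71% and 6.46% of all tested genes were. The urokinase gene Plau was at 69.0 to 105 CPM at low and 86.2 to 304 CPM at high Mki67 (log2 difference 1.12, SE 0.23, adjusted p = 0.00870). The gelatinase Mmp9 was at 3.34 to 31.3 CPM at low and 16.4 to 241 CPM at high Mki67 (log2 difference 2.82, SE 0.68, adjusted p = 0.0169). Neither passed without tumours 3 and 10, with adjusted p of 0.0509 and 0.0931. The stromal proteases Mmp3 and Mmp13 did not pass, with differences of 0.46 (SE 0.51, adjusted p = 0.569) and 1.44 (SE 0.50, adjusted p = 0.0633). Mmp13 was at 154 to 1492 CPM at low and 706 to 2440.1 CPM at high Mki67 against 114 to 684 CPM in vehicle tumours. Of 18 lysosome genes 15 were negative, with a median of -0.20, and 2 were called lower, where 6.46% of all tested genes were. These 2 were the acid lipase Lipa (log2 difference -1.77, SE 0.34, adjusted p = 0.00763) and the glucosidase Gaa (log2 difference -0.45, SE 0.13, adjusted p = 0.0299). Lipa was at 1406 to 4228 CPM at low and 577 to 2364 CPM at high Mki67, where tumour 8 with 1406 CPM stood apart from the other 5 low-Mki67 tumours. Lipa and Gaa did not pass without tumours 3 and 10 (adjusted p = 0.0554 and 0.142). The homeobox gene Irx3, at 114 to 149.7 CPM at low and 109 to 150.4 CPM at high Mki67, did not pass (log2 difference -0.06, SE 0.12, adjusted p = 0.775), and library totals gave it the opposite sign.

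The 11 vehicle tumours, which the ranking did not use, were read as other samples, by a slope on Mki67 in place of a difference between groups. In them 120 genes (4.42%) rose and 64 (2.36%) fell with log2 Mki67 by edgeR among 2714 tested, where the slope is the log2 change per doubling of Mki67. Of the 227 genes higher in high-Mki67 abemaciclib tumours and tested in vehicle, 197 had a positive slope there, 60 were called positive and 1 negative. Of the 179 lower genes tested, 149 had a negative slope, 18 were called negative and 0 positive. Over all genes 52.3% of vehicle slopes were positive. The 78 genes called with the same sign in both made up 17.6% of the abemaciclib calls and 42.4% of the vehicle calls. Of the shared positive genes, 33 came from 52 cell division genes and 27 from 175 others.

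**Figure D4:**
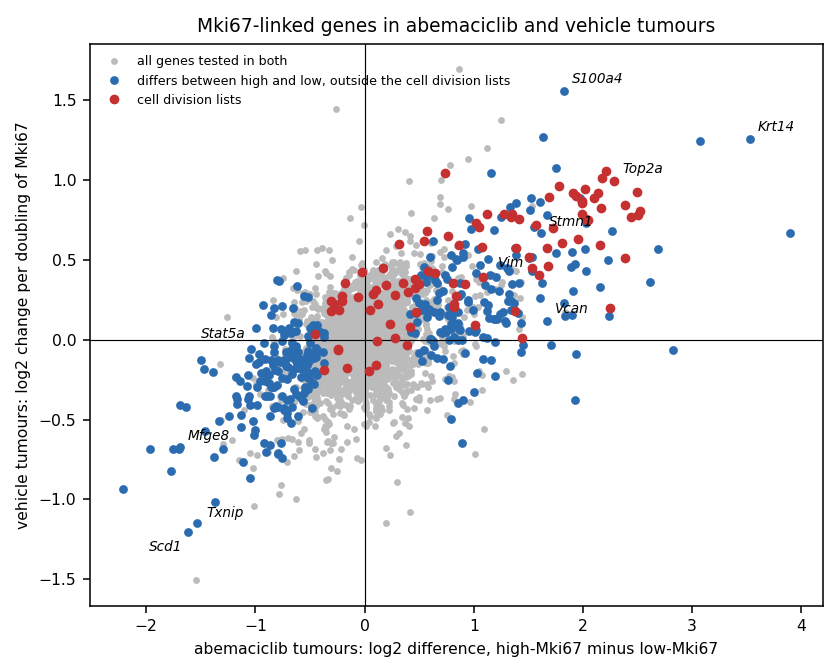
Log2 difference between high-Mki67 and low-Mki67 abemaciclib tumours (horizontal axis) against the log2 change per doubling of Mki67 in the 11 vehicle tumours (vertical axis), 1 point per gene tested in both, with cell division genes in red and other genes called in abemaciclib tumours in blue. Cell division genes lie at the upper right, Txnip and Scd1 at the lower left, and Vcan and Stat5a lie far from 0 on the horizontal axis only.

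Genes of cell division rose with Mki67 in vehicle tumours too. The slopes were 1.01 (SE 0.11, adjusted p = 0.000172) for Ccna2 and 1.06 (SE 0.12, adjusted p = 0.000180) for Kif2c. They were 0.99 (SE 0.12, adjusted p = 0.000222) for Top2a and 0.67 (SE 0.09, adjusted p = 0.000661) for Stmn1. The vehicle slope of Cdkn2c was 1.04 (SE 0.12, adjusted p = 0.000222). Its difference of 0.73 between the abemaciclib groups, which overlapped, is not per doubling of Mki67 and cannot be set against that slope. Outside these lists, Txnip fell with Mki67 at -1.15 (SE 0.12, adjusted p = 0.000172), Scd1 at -1.20 (SE 0.18, adjusted p = 0.00133) and Mfge8 at -0.67 (SE 0.17, adjusted p = 0.0278). Acot6 fell at -0.74 (SE 0.17, adjusted p = 0.0181), Lpl at -1.02 (SE 0.29, adjusted p = 0.0472) and Srebf1 at -0.70 (SE 0.15, adjusted p = 0.0122). S100a4 rose at 1.56 (SE 0.22, adjusted p = 0.000863), Twist1 at 1.27 (SE 0.20, adjusted p = 0.00188), Prom1 at 0.83 (SE 0.18, adjusted p = 0.0142) and Cd44 at 0.45 (SE 0.10, adjusted p = 0.0113). Other genes with the smallest p in abemaciclib tumours had vehicle slopes that did not pass. They were 0.40 (SE 0.14, adjusted p = 0.0838) for Vim and 0.12 (SE 0.18, adjusted p = 0.717) for Vcan. Stat5a was at -0.09 (SE 0.12, adjusted p = 0.661) and Stat5b at -0.25 (SE 0.10, adjusted p = 0.142). Ccnd1 was at 0.57 (SE 0.20, adjusted p = 0.0895) and Krt14 at 1.26 (SE 0.41, adjusted p = 0.0718). The vehicle calls leaned on control tumour 8, the one with the most Mki67, without which 24 positive and 13 negative genes were called. Without control tumour 6 there were 77 and 20. Negative calls numbered 124 without control tumour 1, 114 without 3, 40 without 5 and 39 without 10.

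Whether a gene followed Mki67 differently under abemaciclib was tested as an interaction over all 23 tumours. By edgeR 0 of 2924 genes (0%) passed, with 339 at an unadjusted p under 0.05 and a smallest adjusted p of 0.0937, while DESeq2's Wald test called 6. The interaction had an adjusted p of 0.362 for Vcan, 0.530 for Stat5a and 0.311 for Txnip by edgeR. A missed threshold does not show equal slopes, and Mki67 spanned 2.48 doublings in vehicle and 3.86 in abemaciclib tumours.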

How the data were processed

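RNA from 23 mammary tumours (11 vehicle, 12 abemaciclib) was measured with an Ion AmpliSeq panel of 3826 mouse genes; per the labels 1 short amplicon was read per gene, and per the submitters' processing notes the genome build was mm10. The table deposited by the authors holds raw counts per gene and tumour; the aligner, counter and filters were not given in the sources used. An amplicon count says nothing of transcript length, so levels were compared within a gene only. Levels are CPM scaled with TMM factors over all 23 tumours.

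Groups of 6 were cut on Mki67 CPM of the library total. Genes were kept by filterByExpr (minimum count 10) and tested with edgeR 4.0.16's quasi-likelihood test (R 4.3.3), with Benjamini-Hochberg adjustment over all tested genes except Mki67 and a threshold of 0.05. For low against high Mki67, genes of 4 cell division lists are given without p, as are Psrc1, Nsl1, Stmn1 and Tnfrsf10b. The slope on log2(Mki67 CPM + 1) in vehicle tumours and the interaction over 23 tumours used the same tool. Library measures were compared with exact two-sided permutation tests over 924 assignments. Alternatives used DESeq2 1.42.0, limma 3.58.1, other scalings and filters, and single tumours left out; scripts were tested on simulated data. The labels name no animals, so p-values measure only the spread between these tumours, which may be partly technical. Over 66 pairs of abemaciclib tumours no 2 libraries were copies (smallest chi-square per degree of freedom 26.9). The members and lists were chosen with earlier results of these data known.

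Genes named are the 12 with the smallest p in each direction outside the cell division lists, up to 3 per list by p, a fixed set and the 10 most like Mki67; the text says where a gene was picked later, and 3 of those genes are not reported here. Promoter sequences are RefSeq's (GRCm38.p6), matched by symbol.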

Additional observations from a re-analysis of the deposited data

Results flagged for a closer look

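In 288 sets of 6 tumours (named genes, each group apart), 1 tumour stood apart from the other 5 in 13 sets (4.51%) by Dixon's ratio of gap to range at its 95% critical value, where chance gives about 1 set in 20. The ratio was taken on log2(CPM + 1), while the levels beside it are plain CPM. Tumour 8, the low-Mki67 tumour next to the boundary, accounted for 6 of the 13. In it Lipa, the lysosomal acid lipase, was at 1406 CPM against 3584 to 4228 CPM in the other low-Mki67 tumours (ratio 0.850), and Ezh1, a Polycomb methyltransferase, at 71.7 against 155 to 192 CPM (0.780). The lipase Pnpla2 was at 583 against 922 to 1114 CPM (0.708) and the thiol reductase Ifi30 at 242 against 373 to 447 CPM (0.704). Tumour 8 was highest in Hmgcs1, of cholesterol synthesis, with 99.1 against 68.0 to 77.1 CPM (0.666), and in Odc1, of polyamine synthesis, with 211 against 134 to 157 CPM (0.659). In all 6 genes tumour 8 deviated in the direction of the high-Mki67 group, where the first 4 genes were called lower and the other 2 higher.

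Tumour 7, with the least Mki67, had the lowest Rb1 of its group, 504 against 740 to 802 CPM (0.828), and the highest Zfp395, 528 against 280 to 354 CPM (0.629). Tumour 11 had the lowest Ccnd2, 5.77 against 10.5 to 13.9 CPM (0.679). Among high-Mki67 tumours, number 9 had the highest Itga5, 226 against 72.0 to 96.0 CPM (0.749), and the lowest Cdkn1b, 19.3 against 30.5 to 39.0 CPM (0.648). Tumour 6, the high-Mki67 tumour next to the boundary, had the lowest Vim, 823 against 1355 to 1670 CPM (0.704). Tumour 3 had the highest Apaf1, of the apoptosome, 74.7 against 49.0 to 57.4 CPM (0.628).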

How the results depend on the processing

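All 444 calls kept their sign under every alternative that gave them a value; of 142 named genes 112 were called, 42 of which kept the call throughout and 70 lost it at least once, while 9 uncalled genes changed sign. Counts of higher and lower calls were 469 and 71 with library totals, 124 and 69 with housekeeping scaling, 383 and 361 with limma-voom, 356 and 265 with DESeq2's Wald test, 413 and 356 with Mki67 as a continuous covariate, 415 and 326 without tumours 8 and 6, and 44 and 23 without tumours 3 and 10. Leaving out each tumour in turn gave 153 to 374 higher and 69 to 284 lower calls. Counts without overlap, which can only stay or rise when a tumour is left out, were 73 to 200 above and 42 to 189 below. Library totals gave 20 below. Except where said, the cause was not tested; fewer tumours also mean fewer samples.

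With library totals, list medians (log2) were 0.33 for the CDK-RB axis, 0.63 for p53 targets, 0.48 for neutrophil markers, -0.0016 for lysosome, 0.22 for luminal, 0.24 for ERBB, 0.39 for MYC, 0.45 for WNT, 0.19 for apoptosis, 0.48 for chromatin silencing and 0.27 for housekeeping genes. Housekeeping scaling gave 0.29 for p53 targets, 0.11 for WNT and -0.15 for apoptosis. Without tumours 3 and 10 they were 0.0053 for neutrophil, -0.30 for T cell, -0.33 for checkpoint and 0.18 for housekeeping genes, and without tumours 8 and 6 -0.56 for B cell, 0.34 for immediate-early and 1.21 for epithelial to mesenchymal genes. Single tumours left out gave 0.039 to 0.356 for immediate-early genes.

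Uncalled genes changed sign as follows. Library totals gave 0.064 for Rb1, 0.049 for Cdkn2a, 0.050 for Epcam, 0.16 for Irx3 and 0.14 for Ptprc, and upper-quartile factors 0.0043 for Irx3. Housekeeping scaling gave -0.059 for Erbb2, -0.090 for Icam1 and -0.40 for Adipoq, limma-voom -1.01 for Adipoq, and the continuous covariate -0.025 for Erbb2, -0.023 for Mmp3, -0.032 for Pecam1 and -0.071 for Adipoq. Without tumours 8 and 6, Icam1 was at -0.032 and Adipoq at -0.29. Without tumours 3 and 10, Cd274 was at -0.38, Icam1 at -0.13 and Irx3 at 0.024. Single tumours left out gave -0.030 to 0.17 for Erbb2, -0.060 to 0.62 for Cd274, -0.066 to 0.13 for Icam1, -0.10 to 0.00018 for Irx3, -0.13 to 0.049 for Ptprc and -1.05 to 0.43 for Adipoq.

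Vehicle slopes numbered 593 positive and 36 negative with library totals and 189 and 151 with DESeq2's Wald test, and 24 to 151 and 13 to 124 with single tumours left out. The slope of Stat5a was 0.083 with library totals and -0.22 to 0.066 with single tumours left out, and that of Vcan -0.15 to 0.33. DESeq2's Wald test called 6 interactions. Replicate numbers name no shared animal or batch: same-numbered tumours had correlations of -0.43 to 0.45 over 11 pairs, 5 over 0.1, and 2 abemaciclib tumours correlated best with their own number. The fit with the replicate block called 0 interaction genes, as without it. The ranking itself cannot be blocked, since each number occurs once among abemaciclib tumours. Depth limits genes of a few counts, 898 of which were set aside.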

Other observations

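Cell death genes had no common direction. Of 31 tested apoptosis genes 15 were higher and 16 lower in high-Mki67 tumours, with a median log2 difference of -0.04. Of the 31, 3 were called higher and 2 lower, near the shares over all tested genes, 8.71% higher and 6.46% lower. Bmf, a BH3-only activator of cell death, was at 233 to 456 CPM at low and 137 to 305 CPM at high Mki67 (log2 difference -0.93, SE 0.21, adjusted p = 0.0113). Bak1, which permeabilizes the outer mitochondrial membrane, was at 70.4 to 144 CPM at low and 126 to 266 CPM at high Mki67 (log2 difference 0.76, SE 0.22, adjusted p = 0.0320), and Apaf1, the core of the apoptosome, at 36.0 to 49.2 CPM at low and 49.0 to 74.7 CPM at high Mki67 (log2 difference 0.47, SE 0.14, adjusted p = 0.0367). None of the 3 passed without tumours 3 and 10 (adjusted p = 0.0681, 0.0737 and 0.146).

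Growth and chromatin genes gave few calls, to be read beside 8.71% of all tested genes called higher and 6.46% called lower. Of 19 tested MYC and growth genes 13 were positive, with Cad, which starts pyrimidine synthesis, at 45.2 to 78.6 CPM at low and 64.4 to 134 CPM at high Mki67 (log2 difference 0.80, SE 0.21, adjusted p = 0.0210) and Odc1, which starts polyamine synthesis, at 134 to 211 CPM at low and 164 to 409 CPM at high Mki67 (log2 difference 0.84, SE 0.22, adjusted p = 0.0245). Rptor, the mTORC1 subunit, was lower without overlap, at 106 to 124 CPM at low and 79.0 to 102 CPM at high Mki67 (log2 difference -0.38, SE 0.11, adjusted p = 0.0320). Of 20 chromatin silencing genes 12 were positive, with 1 called higher and 1 lower. The heterochromatin protein Cbx5 was higher (log2 difference 0.69, SE 0.16, adjusted p = 0.0118) and Ezh1, the Polycomb enzyme of resting cells, lower (log2 difference -0.79, SE 0.21, adjusted p = 0.0260). Cad, Odc1, Rptor, Cbx5 and Ezh1 did not pass without tumours 3 and 10 (adjusted p = 0.0912, 0.133, 0.150, 0.0554 and 0.130).

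The genes that ran most opposite to Mki67 over the 12 abemaciclib tumours, chosen for this after values were seen and given without a test, were Isoc1 (Pearson's r -0.959), Tmco1 (-0.952), Adck3 (-0.951), Slc5a3 (-0.943), Dhrs3 (-0.939) and Txnip (-0.939). Slc5a3 carries inositol into cells and Dhrs3 reduces retinal. Spearman's rho was -0.951, -0.951, -0.930, -0.944, -0.972 and -0.958 in the same order.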
